A study of Homo sapiens with 4 samples.

Results

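The clustered protocadherins are 3 neighbouring groups of cell adhesion genes on human chromosome 5, called alpha, beta and gamma. Their members were taken by gene name, as every promoter labelled PCDHA, PCDHB, PCDHGA, PCDHGB or PCDHGC followed by a number or by C. This gave 52 of the 20242 promoters in the data: 15 in the alpha cluster, 16 in the beta cluster and 21 in the gamma cluster, the last made up of 12 PCDHGA, 6 PCDHGB and 3 PCDHGC promoters. No measured value was used to choose them.

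In the alpha and gamma clusters each variable first exon has a promoter of its own and is spliced to constant exons shared by the whole cluster, while the beta genes are each a single coding exon. Neurons switch on a small, largely random selection of these promoters, and the combination on a cell's surface serves as an identity tag by which its branches recognise and avoid each other. Members named with a C (C-type) are chosen less randomly and are used by most neurons of a class. Most promoters carry a conserved sequence element with the letters CGCT at its core, next to or within a site bound by CTCF, a protein that with cohesin folds a chosen promoter onto a distant enhancer. Trimethylated lysine 4 of histone H3 (H3K4me3) marks promoters that are open to transcription. Trimethylated lysine 27 (H3K27me3), laid down by Polycomb complexes, marks promoters held silent, and promoters with both marks are called bivalent.

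The measurements were made in JMJD3c-hESCs, cells made from SEES-3, a human embryonic stem cell line, by adding a doxycycline (Dox) switch for HA-tagged JMJD3c, the catalytic region of the H3K27 demethylase JMJD3 joined to a nuclear localisation signal. The transgene was inserted with piggyBac and the cells were selected with puromycin, so the stably selected line stood for the system in both conditions. Cells without Dox (−Dox) and cells given Dox at 1 µg/ml (+Dox), on day 3 in feeder-free StemFit AK-03 medium, were each examined by chromatin immunoprecipitation sequencing (ChIP-seq) with antibodies against H3K27me3 and H3K4me3. Each mark and condition had 1 library, so the 4 libraries allow no replicate spread and no p-value. A control expressing an inactive JMJD3c was not analysed here, and Dox and JMJD3c cannot be told apart.

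Every value below is the deposited signal: ngs.plot coverage scaled to library size and added up over the 6 kb centred on each transcription start. Worked out from the smallest step of the values, the 4 libraries corresponded to about 2629351 to 3509244 reads. The signal of 1 promoter therefore rested on few reads. Both +Dox libraries had the same step and so the same figure, 2682085. Whether each was scaled by its own depth was not tested. If not, every +Dox/−Dox ratio of that mark would be shifted by a common factor. A value of 20, the threshold for a marked promoter in the study's methods, stood for about 15.8 to 20.6 reads, and the median promoter had a H3K27me3 value of 6.09 in −Dox and 5.97 in +Dox cells, about 5 reads in each. Intervals on +Dox/−Dox ratios are exact 95% Clopper-Pearson intervals computed on approximate reads, which cover counting error only. They compare 2 libraries, not 2 conditions. Markers of pluripotent cells carried H3K4me3 above 20 at 10 of 11 promoters and H3K27me3 above 20 at 0 of 11. Of the markers of other lineages, 4 of 5 mesoendoderm and 5 of 5 neuroectoderm promoters carried H3K27me3 above 20. Both of these lists also had H3K4me3 above 20 at 5 of 5 promoters in −Dox cells. Among 5 fibroblast markers, 3 had H3K4me3 and 0 had H3K27me3 above 20. Over all promoters in −Dox cells, the shares above 20 were 63.7% for H3K4me3 and 11.0% for H3K27me3.

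The starts of 51 members were found on GRCh37, the build of the files (hg19), and PCDHB16 was not matched. All 51 lay on the plus strand, each at the 5′ end of a first exon. The alpha starts ran from chr5:140165725 to chr5:140346061, over 180.3 kb. The beta starts followed from 140430959 to 140624963, over 194 kb, and the gamma starts from 140710081 to 140868648, over 159 kb. Among members with an annotated canonical transcript, 49 of 49 deposited starts lay within 500 bp of its start.

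The clusters differed in how far neighbouring windows overlapped. Alpha starts were at least 6011 bp apart, so 0 alpha pairs shared sequence. In the beta cluster 4 pairs involving 8 members overlapped, by 62 to 855 bp. In the gamma cluster 12 pairs involving 18 members overlapped, by 758 to 2627 bp. The widest overlap, PCDHGB7 with PCDHGA11, covered 43.8% of a window, followed by PCDHGB3 with PCDHGA6 at 39.2% and PCDHGC4 with PCDHGC5 at 32.5%. PCDHGA9, PCDHGB6, PCDHGA10, PCDHGB7 and PCDHGA11 formed an unbroken chain. Reads in a shared stretch enter both values, so such neighbours are not separate measurements. Taking windows in chromosome order and keeping each one that overlapped no earlier kept window left 39 members: 15 alpha, 11 beta and 13 gamma.

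The sequences below compare, within each cluster, promoters whose H3K4me3 in −Dox cells was above 20 with close relatives that were not. They are 25 bases of the GRCh37 plus strand, which is the sense strand of every member, with the CGCT core in capitals, 14 bases before it and 7 after it. The first pair is alpha, at chr5:140174368-140174392 and chr5:140180581-140180605.
PCDHA2: tagccacatgatgtCGCTgtccacc
PCDHA3: tagccacatgatgtCGCTgtccacc
The second alpha pair is at chr5:140186566-140186590 and chr5:140213759-140213783.
PCDHA4: gagccacatgatgtCGCTctttacc
PCDHA7: tggccacatgatgtCGCTctttacc
The beta pair is at chr5:140514763-140514787 and chr5:140593439-140593463.
PCDHB5: aggacgcctggtggCGCTgcaggct
PCDHB13: aggacgcgtggtggCGCTgcaggat
The gamma pair is at chr5:140792500-140792524 and chr5:140762218-140762242.
PCDHGA10: aggactctgagcgcCGCTgttcacc
PCDHGA7: aggactcacagcgcCGCTgttcacc
The C-type members with the highest H3K4me3 of each cluster were PCDHAC2 at chr5:140345952-140345976 and PCDHGC4 at chr5:140864521-140864545.
PCDHAC2: gagcagtccgggttCGCTgtccgcc
PCDHGC4: ctgagcccgggagcCGCTgtctgcc

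Each pair joins a marked member to the unmarked member of its cluster with the most matching bases, PCDHGA7 being 1 of 3 equally close to PCDHGA10. Where a promoter held several CGCT, the one most like those of the rest of its cluster was taken, so similarity was in part a matter of choice. The stretches of PCDHAC2 and PCDHGC4 matched those of their clusters at 52.3% and 57.6% of bases on average. The cluster medians were 72.6% in alpha and 71.3% in gamma, so these 2 need not be the conserved element. PCDHA2 and PCDHA3 matched at 25 of 25 bases, and their H3K4me3 values in −Dox cells were 34.5 and 5.70. PCDHA4 (31.3) and PCDHA7 (13.4) matched at 23 of 25 bases. PCDHB5 (25.6) and PCDHB13 (6.55) also matched at 23 of 25, as did PCDHGA10 (27.9) and PCDHGA7 (6.27). That the members of a pair lay on opposite sides of the threshold in −Dox cells was fixed by how pairs were made. In +Dox cells PCDHA4 (26.5) and PCDHA7 (24.6) were on the same side. Not every marked promoter had such a relative: PCDHAC1 and PCDHGB7 reached only 11 of 25 matching bases with any unmarked member of their clusters.

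CGCT was searched in the 250 bases before each start. On the sense strand it was present in 47 of 51 members (92.2%), against 56.1% of the 18244 promoters whose start was known. It was absent there from PCDHA9, PCDHB8, PCDHGA12 and PCDHGC5. With both strands counted, the shares were 94.1% of members and 74.0% of promoters. The longer word GGNGGCGCT, which contains CGCT and resembles a stretch of the CTCF motif, was searched on both strands and found in 12 of 15 beta members, 0 of 15 alpha and 0 of 21 gamma members, against 3.96% of all promoters. TATAAA, the TATA box letters, occurred on either strand in 11 of 51 members (21.6%) and in 9.42% of all promoters. The distance from the CGCT core to the start had a median of 56 bp in the alpha, 64 bp in the beta and 57 bp in the gamma cluster, over 14, 13 and 19 members. These include stretches unlike the rest, with identities down to 43.4% in alpha, 31.0% in beta and 39.6% in gamma. A match of letters is a description and not a bound site.

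H3K4me3 was above the threshold at a minority of the members, most often in the alpha cluster. In −Dox cells 14 of 52 members (26.9%) were above 20, against 63.7% of all promoters. By cluster these were 7 of 15 alpha (46.7%), 3 of 16 beta (18.8%) and 4 of 21 gamma members (19.0%). The median H3K4me3 value was 16.5 in the alpha, 5.70 in the beta and 6.27 in the gamma cluster, compared with 41.3 over all promoters. Of all 52 members, 28 had values of at most 10 in both conditions.

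**Figure D1:**
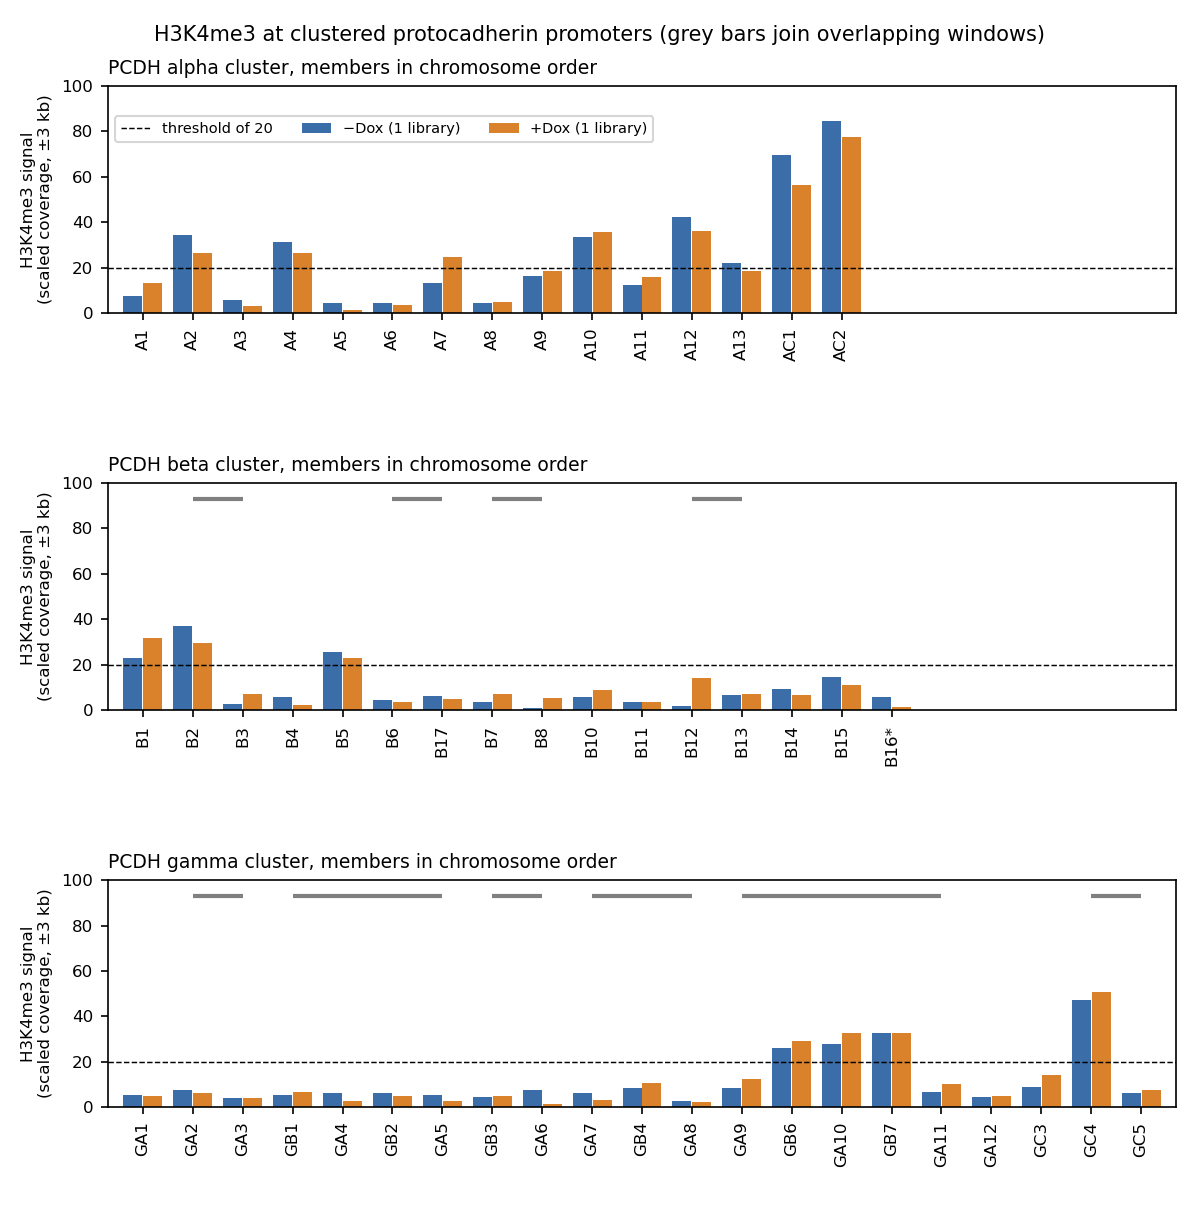
H3K4me3 signal (scaled coverage summed over 3 kb on each side of the start) of each member in −Dox (blue) and +Dox (orange) cells, 1 library each, in chromosome order from left to right. The dashed line is the threshold of 20, grey bars join members whose windows overlap, and the asterisk marks PCDHB16, whose position was not matched. PCDHAC1 and PCDHAC2 stand highest, and the gamma members above 20 are PCDHGB6, PCDHGA10, PCDHGB7 and PCDHGC4.

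The C-type promoters held the highest values of the alpha and gamma clusters, but not all 5 were marked. PCDHAC2, which serotonergic neurons use to space their axons, had a H3K4me3 value of 84.6 in −Dox and 77.6 in +Dox cells. PCDHAC1 had 69.5 and 56.3. PCDHGC4, needed for the survival of many neurons, had 47.3 and 50.7. These 3 were above the threshold in both conditions. PCDHGC3, whose cytoplasmic part binds the Wnt pathway scaffold AXIN1, had 8.83 and 14.2, and PCDHGC5 had 5.98 and 7.46. PCDHGC5 was low although it shares 1950 bp of its window with PCDHGC4.

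Outside the C-type, the alpha members above 20 in −Dox cells were PCDHA2, PCDHA4, PCDHA10, PCDHA12 and PCDHA13. PCDHA1, the first member, had 7.69 in −Dox and 13.4 in +Dox cells. PCDHA2 had 34.5 and 26.5, PCDHA3 had 5.70 and 2.98, and PCDHA4 had 31.3 and 26.5. From PCDHA1 to PCDHA4 low and high values alternated, in windows that do not overlap. In −Dox cells PCDHA5 to PCDHA9 followed as 5 unmarked members in a row, while in +Dox cells PCDHA7 among them had 24.6. PCDHA5, PCDHA6 and PCDHA8 were the lowest in −Dox cells, between 4.27 and 4.56, and lay between 1.12 and 4.85 in +Dox cells. Further along, PCDHA10 had 33.6 and 35.8, and PCDHA12, the highest outside the C-type, had 42.2 and 36.2.

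The beta cluster was marked at 3 promoters, all among the first 5 in chromosome order. PCDHB1, the first and an outlying member that lacks the GGNGGCGCT word, had a H3K4me3 value of 23.1 in −Dox and 31.7 in +Dox cells. PCDHB2 had 36.8 and 29.5, and PCDHB5 had 25.6 and 23.1. PCDHB16, left out of the position work, had 5.70 and 1.12. PCDHB17, annotated as a transcribed pseudogene, was among the unmarked, with 6.27 and 4.85. The 13 beta members not above 20 lay between 0.855 (PCDHB8) and 14.5 (PCDHB15) in −Dox cells and between 1.12 and 14.2 in +Dox cells, which left a gap up to the 23.1 of the lowest marked member in each condition.

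In the gamma cluster the marked promoters outside the C-type were 3 neighbours. PCDHGB6 had 25.9 in −Dox and 29.1 in +Dox cells, PCDHGA10 had 27.9 and 32.8, and PCDHGB7 had 32.8 in both. Each shares 1035 to 1311 bp with the next, so the 3 values are not independent. PCDHGA11 shares 2627 bp with PCDHGB7 and yet had 6.55 and 10.1, and PCDHGA9, on the other side, had 8.55 and 12.3. From PCDHGA1 to PCDHGA8, the first 12 gamma members in order, every H3K4me3 value was at most 8.26 in −Dox and 10.4 in +Dox cells.

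Membership of the marked set was nearly the same in both conditions. There were 14 members above 20 in −Dox and 14 in +Dox cells, of which 13 were shared. PCDHA13 was above 20 only in −Dox cells, with 22.2 against 18.3, and PCDHA7 only in +Dox cells, with 24.6 against 13.4 (ratio 1.84, 95% interval 0.887 to 3.95). Both intervals held 1, since that of PCDHA13 ran from 0.409 to 1.69. Across 51 members the −Dox and +Dox values had a Pearson correlation of 0.96 and a Spearman correlation of 0.80, given as a description, because members share libraries and, in part, reads.

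H3K4me3 in the clusters as a whole was similar between conditions. Summed over the non-overlapping windows it came to 387 without and 362 with Dox in the alpha cluster, a ratio of 0.935 (95% interval 0.804 to 1.09). The beta sums were 134 and 141 (1.06, 0.805 to 1.35) and the gamma sums 141 and 158 (1.12, 0.859 to 1.40). All 3 intervals included 1. When the libraries were instead scaled to a median ratio of 1 over promoters of low signal, which lowers every H3K4me3 ratio by a factor of 0.892 (−0.17 on the log2 scale), the alpha ratio was 0.833 (0.717 to 0.976). The median log2 +Dox/−Dox ratio of single members was −0.22 in the alpha, −0.09 in the beta and 0.09 in the gamma cluster, and −0.03 over all promoters.

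Large single ratios of H3K4me3 came from low values. A ratio above 2 was seen at 4 of 52 members (7.69%, against 6.09% of all promoters), which were PCDHB3, PCDHB7, PCDHB8 and PCDHB12, and a ratio below 0.5 at 6 of 52 (11.5%, against 5.33% of all promoters). A ratio above 1 was seen at 26 of 52, against 47.4% of all promoters. PCDHB12 had 1.71 in −Dox and 14.2 in +Dox cells, about 2 and 11 reads, and its ratio of 8.29 (1.55 to 66.0) was the only one of 52 whose interval left out 1. Such intervals lay above 1 at 1.81% of all promoters, so 1 among 52 members was near the background. PCDHB12 remained under 20, and 801 bp of its window is shared with PCDHB13, which had 6.55 and 7.08.

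CpG dinucleotides, which are dense at many promoters with H3K4me3, were counted in the 1 kb around each start. The median was 38.0 in the alpha, 23.0 in the beta and 36.0 in the gamma cluster, and 62.0 over all promoters. PCDHAC1 with 78 and PCDHAC2 with 63 had the most among members, and PCDHGC5 with 14 was, with PCDHB10, the lowest. Over 51 members the CpG count and the H3K4me3 value in −Dox cells had a Pearson correlation of 0.65 and a Spearman correlation of 0.45. Without the 5 C-type members these were 0.35 and 0.34 over 46. Among alpha members outside the C-type the correlations were 0.18 and 0.12 over 13: PCDHA12 and PCDHA8 both had 38 CpGs, with H3K4me3 values of 42.2 and 4.27. The presence of CGCT did not part the classes either. It was found in 7 of 7 alpha members above 20 and 7 of 8 not above, in 3 of 3 and 11 of 12 beta members with a known start, and in 4 of 4 and 15 of 17 gamma members.

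**Figure D2:**
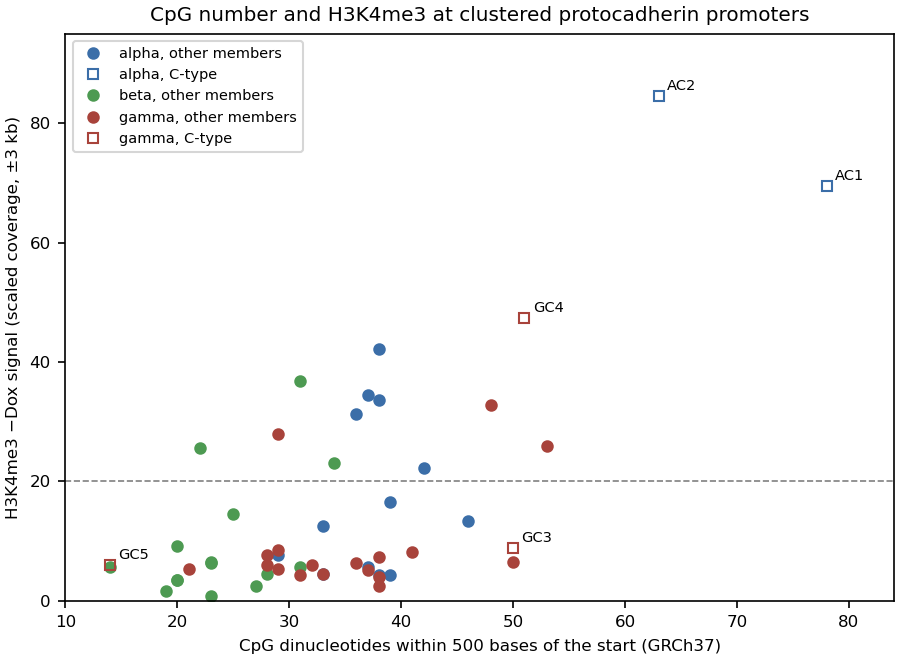
Number of CpG dinucleotides within 500 bases of the start (x axis, GRCh37) against the H3K4me3 signal in −Dox cells (y axis, scaled coverage), 1 point for each of 51 members, coloured by cluster, with open squares for the C-type. PCDHAC1 and PCDHAC2 lie at the upper right, and members with about 30 to 50 CpGs lie on both sides of the dashed threshold of 20.

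H3K27me3 was low at the clustered protocadherins before JMJD3c was switched on. In −Dox cells 0 of 52 members were above 20, against 11.0% of all promoters, and the highest was PCDHGB4 with 14.5. The median value was 6.47 in the alpha, 4.56 in the beta and 8.75 in the gamma cluster, beside 6.09 over all promoters and 5.32 over the 7036 promoters with neither mark. In −Dox cells 0 members were therefore bivalent, 0 carried H3K27me3 only, 14 carried H3K4me3 only and 38 neither. In +Dox cells the same classes held 0, 1, 14 and 37 members. No input library was used here, so how far these low values exceed the background of the assay was not tested.

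The non-clustered protocadherins, related adhesion genes that stand alone in the genome, were different. Of 12 on the list, 6 were above 20 for both marks in −Dox cells, against 1907 of all 20242 promoters. These 6 were PCDH7, PCDH8, PCDH10, PCDH15, PCDH17 and PCDH19. Their H3K27me3 values ran from 55.5 (PCDH10) to 136 (PCDH17), all above the 14.5 of the highest clustered member, and the other 6 lay between 1.52 (PCDH20) and 8.37 (PCDH1). In +Dox cells PCDH10 had 21.3 (ratio 0.383, 0.204 to 0.679), PCDH15 had 19.0 in place of 62.8 (0.303, 0.157 to 0.546) and PCDH7 had 30.6 in place of 65.0 (0.470, 0.273 to 0.767). For PCDH8, PCDH17 and PCDH19 the intervals included 1. The median log2 ratio of H3K27me3 was −0.39 over the 12 non-clustered genes and 0.56 over the 52 clustered members, 2 lists that start from very different levels.

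**Figure D3:**
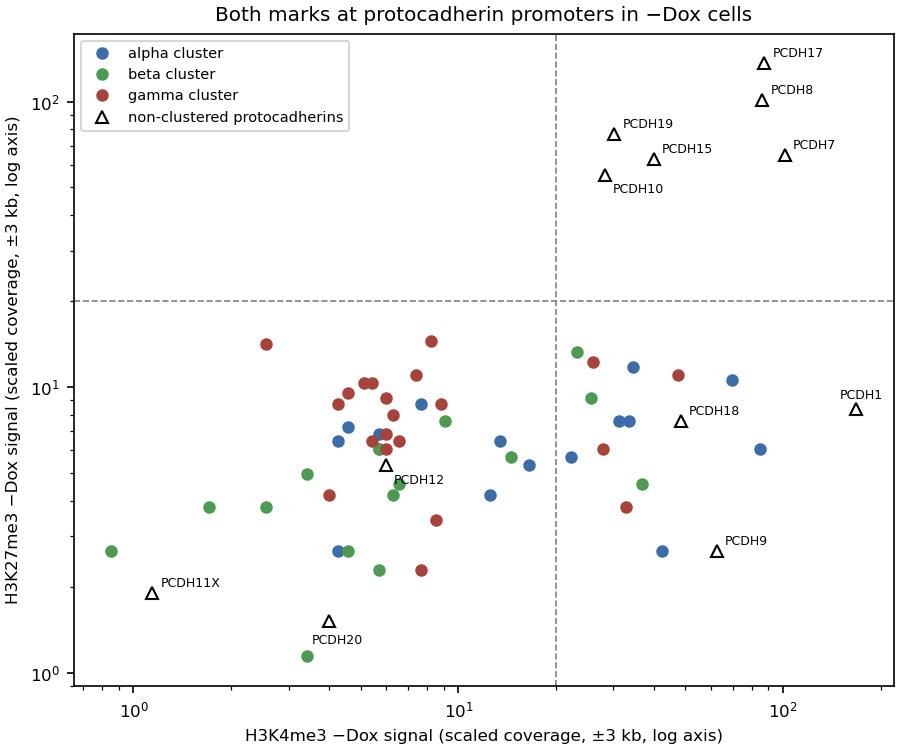
H3K4me3 signal (x axis) against H3K27me3 signal (y axis) in −Dox cells, both as scaled coverage on log axes, for the 52 clustered members (filled circles by cluster) and 12 non-clustered protocadherins (open triangles, named). The dashed lines mark 20: 6 non-clustered genes lie above both, and every clustered member lies below the horizontal line.

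H3K27me3 was more often higher than lower in the +Dox library at the clustered members. Over all promoters 43.4% had a +Dox/−Dox ratio above 1, and among members 38 of 52 (73.1%) did: 8 of 15 alpha, 13 of 16 beta and 17 of 21 gamma. A ratio below 0.5 occurred at 2 of 52, PCDHA3 (6.85 and 1.49) and PCDHB1 (13.3 and 4.10), against 21.5% of all promoters. A ratio above 2 occurred at 12 of 52 members (23.1%), namely 1 alpha, 6 beta and 5 gamma, against 14.7% of all promoters. The median log2 ratio was 0.20 in the alpha (95% interval of the median over members −0.21 to 0.33), 0.88 in the beta (0.15 to 1.56) and 0.61 in the gamma cluster (0.15 to 0.97), and −0.15 over all promoters. Intervals of medians describe the spread over promoters measured in the same libraries, some with shared reads. They do not compare conditions. At the median, the clustered members rested on about 5 reads each in −Dox and 7 in +Dox cells. Other lists of promoters with few H3K27me3 reads went both ways. A ratio above 1 was seen at 8 of 11 pluripotency markers (72.7%), with a median log2 ratio of 0.45 (95% interval −0.66 to 1.33). It was seen at 11 of 19 regulators of the clusters (57.9%), with a median of 0.71 (−0.84 to 1.67). Lower medians were found over 29 other promoters between members or within 500 kb of the clusters (11 higher, median −0.20, −0.42 to 0.56). The same held for the intracellular partners of the clusters (5 of 16 higher, −0.47, −1.28 to 0.10) and the fibroblast markers (1 of 5, −0.20, −0.73 to 0.21). With lists going both ways, the higher values were not shown to be particular to the clustered protocadherins. In the mesoendoderm list 3 of 5 were higher and in the neuroectoderm list 2 of 5.

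**Figure D4:**
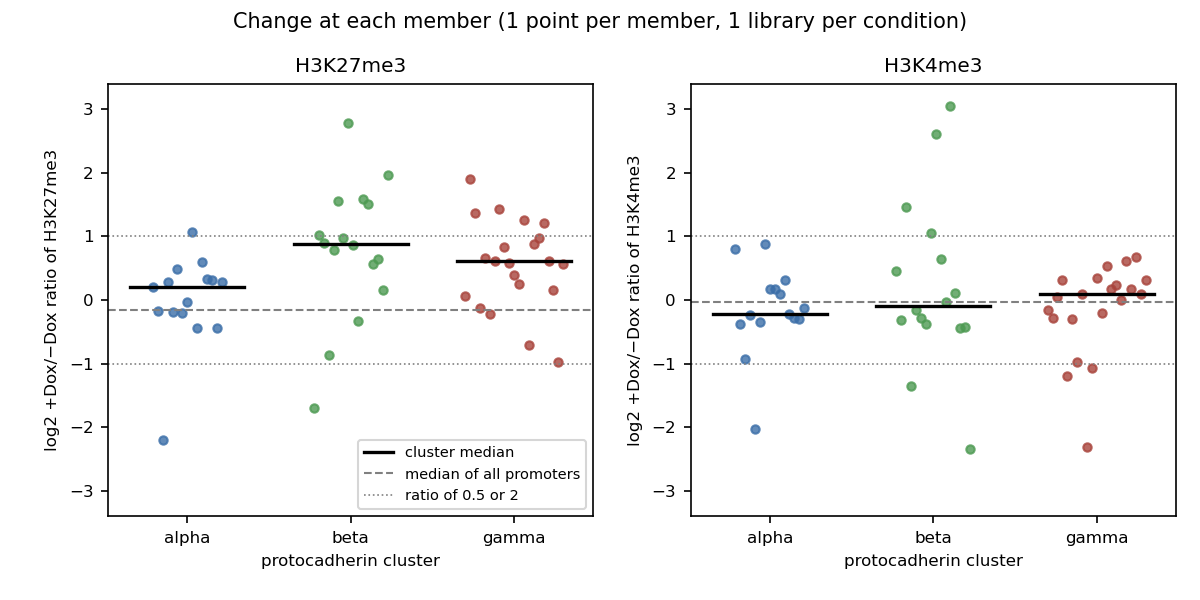
Log2 +Dox/−Dox ratio of H3K27me3 (left) and H3K4me3 (right) for each member (1 point, 1 library per condition), by cluster. Black bars are cluster medians, the dashed line is the median of all promoters, and dotted lines mark ratios of 0.5 and 2; for H3K27me3 the medians are 0.20, 0.88 and 0.61 in the alpha, beta and gamma clusters.

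Summing the separate windows gave the reads more weight than single promoters allow. Over the 15 alpha windows H3K27me3 rested on about 77 reads in −Dox and 80 in +Dox cells, giving a signal ratio of 1.02 (95% interval 0.738 to 1.42). Over 11 beta windows the summed signal was 65.0 and 96.9, about 51 and 78 reads (1.49, 1.04 to 2.19). Over 13 gamma windows it was 104 and 151, about 82 and 122 reads (1.45, 1.10 to 1.96). The alpha interval included 1, while the beta and gamma sums were higher in the +Dox library by more than counting error. The intervals of the 3 clusters overlapped, and a difference between clusters was not tested. All 39 windows together had 269 and 349.7, about 210 and 280 reads (1.30, 1.09 to 1.58).

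The scaling of the libraries bears on the size of this difference. H3K27me3 summed over all promoters was 251063 in the −Dox and 213388 in the +Dox library. Scaling both to the same total raises every ratio by a factor of 1.18 (0.23 on the log2 scale), after which 44 of 52 members and 53.1% of all promoters had a ratio above 1. The summed ratios were then 1.20 in the alpha, 1.75 in the beta and 1.70 in the gamma cluster. Scaling to promoters of low signal gave 1.04, 1.52 and 1.47, with 38 of 52 members above 1. The part of this difference between library totals in the members' higher values was not tested. Other promoters of low signal are the nearest comparison: the median log2 ratio was −0.08 over the 7036 promoters with neither mark, of which 45.6% of those with a ratio were above 1, and −0.17 over 12345 promoters in the members' range of GC content (40.3% to 54.2%).

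PCDHGB3 was the 1 member above 20 for H3K27me3 in +Dox cells. It had 9.51 without Dox and 25.7 with Dox, about 7 and 21 reads, a ratio of 2.71 (1.21 to 8.22). In the deposited scaling it was the only member whose interval left out 1, and 1.85% of all promoters had an interval above 1. With both libraries scaled to the same total, PCDHB11 also had an interval above 1. Its neighbour PCDHGA6, which shares 2352 bp with it, had 11.0 and 19.8. PCDHGB4 had 14.5 and 19.0 and PCDHGA8 14.1 and 16.8. With PCDHGA5 at 15.7, the highest 5 H3K27me3 values of the gamma cluster in +Dox cells lay among the neighbours from PCDHGA5 to PCDHGA8, some of which share reads.

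By gamma subfamily, all 12 PCDHGA members had a H3K27me3 ratio above 1, from 1.05 at PCDHGA1 to 3.76 at PCDHGA2. So did 3 of 6 PCDHGB and 2 of 3 PCDHGC members, against 43.4% of all promoters. A difference between subfamilies was not tested. PCDHGB and PCDHGA promoters are interleaved and share windows, and each PCDHGA ratio by itself had an interval that included 1. PCDHGA2 had 2.28 and 8.58, about 2 and 7 reads.

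The beta member with the largest ratio, PCDHB7, also had the lowest value in −Dox cells. It had 1.14 in −Dox and 7.83 in +Dox cells, about 1 and 6 reads. PCDHB11 had 4.94 and 14.9 (3.02, 0.895 to 12.6), and PCDHB12 had 3.80 and 10.8. PCDHB5, marked by H3K4me3, had 9.13 and 15.7, the highest beta value in +Dox cells. PCDHB1, which stands 43240 bp from its nearest fellow member, had 13.3 and 4.10 (0.308, 0.0522 to 1.15). The other beta members lower in +Dox cells were PCDHB4, with 6.09 and 3.36, and PCDHB10, with 6.09 and 4.85. PCDHB15, the last positioned member, had 5.70 and 6.34, and PCDHB16, without a position, had 2.28 and 8.95.

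In the alpha cluster H3K27me3 stayed between 2.66 and 11.8 in −Dox and between 1.49 and 11.2 in +Dox cells, with no member's interval leaving out 1. PCDHA2 was highest in −Dox cells with 11.8 and had 10.4 in +Dox cells. PCDHA6 and PCDHA12 were lowest, both at 2.66, with 3.73 and 3.36 in +Dox cells. The C-type members were PCDHAC1 with 10.6 and 7.83 and PCDHAC2 with 6.09 and 7.46. In the gamma cluster PCDHGC3 had 8.75 and 9.69, PCDHGC4 11.0 and 5.59, and PCDHGC5 6.09 and 8.95. Of the 5 C-type members 3 had a ratio above 1, against 43.4% of all promoters.

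**Figure D5:**
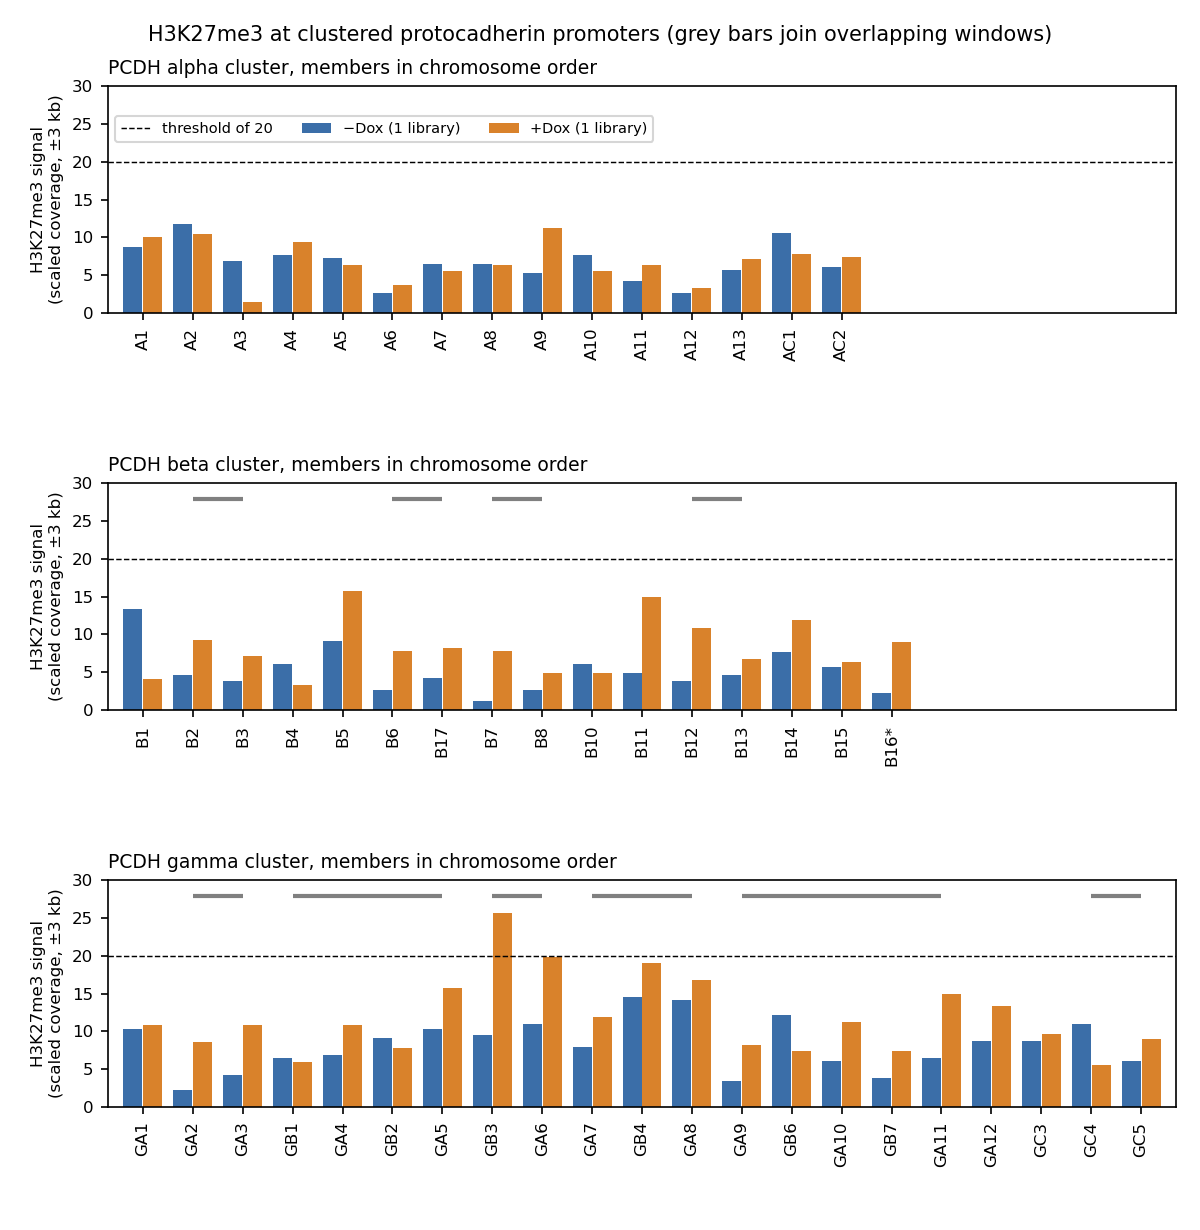
H3K27me3 signal (scaled coverage summed over 3 kb on each side of the start) of each member in −Dox (blue) and +Dox (orange) cells, 1 library each, in chromosome order. The dashed line is the threshold of 20, which PCDHGB3 alone passes, in +Dox cells; grey bars join overlapping windows, and the asterisk marks PCDHB16, whose position was not matched.

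Genes around and between the clusters gave a local comparison. Over all promoters, 63.7% had H3K4me3 above 20 in −Dox cells and 43.4% had a H3K27me3 ratio above 1. Of 17 other promoters in the 500 kb before the first member, 12 had H3K4me3 above 20 in −Dox cells. The median H3K27me3 of the 17 was 6.47 without and 4.47 with Dox, and 5 were higher in +Dox cells. Of 9 in the 500 kb after the last member, 8 had H3K4me3 above 20, and the H3K27me3 medians were 5.32 and 5.97, with 3 of 9 higher. Some of these windows nearly coincide, such as those of HARS and HARS2, and PCDH1 and PCDH12 after the last member are also among the non-clustered genes. The nearest upstream genes were ZMAT2, with H3K27me3 values of 11.4 and 4.47, and HARS2, with 9.13 and 3.36. The nearest downstream were DIAPH1, with 2.28 and 5.97, and HDAC3, with 7.61 and 2.61. The 3 genes that lie between members, AC005609.1, SLC25A2 and TAF7, were higher in +Dox cells in 3 of 3 cases, with medians of 7.99 and 12.3. The TFIID subunit gene TAF7 was marked by H3K4me3 with 60.1, between the beta and gamma clusters. The window of AC005609.1 reaches into that of PCDHA11.

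Genes known to control the clusters or to pass on their signals were listed for comparison. All 19 listed regulators, among them CTCF, the cohesin subunits and the DNA methyltransferases, had H3K4me3 above 20 in −Dox cells, against 63.7% of all promoters, and 18 of 19 did in +Dox cells, where WIZ had 17.9 in place of 29.6. H3K27me3 was above 20 at 0 of 19 in both conditions, against 11.0% of all promoters in −Dox cells. Of 16 intracellular partners, such as the kinases FYN and PTK2 and the WAVE complex genes, 15 had H3K4me3 above 20 in both conditions. The exception was the Wnt receptor gene RYK, with 7.69 and 4.85. The partners above 20 for both marks in −Dox cells were MARCKS, with H3K27me3 of 49.8 in −Dox and 13.0 in +Dox cells, and PIK3R1, with 23.2 and 7.08.

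The members are closely related paralogues. Reads of 150 bases from the most similar stretches could map to more than 1 copy, how the mapping treated such reads is not given in the sources used here, and the part of this in the low values was not tested.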

How the data were processed

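ChIP-seq libraries for H3K27me3 and H3K4me3 from −Dox and +Dox JMJD3c-hESCs (1 library per group) were compared without replicates and without p-values. The authors sequenced single-end reads on a MiSeq, processed them with CASAVA 1.4 and Bowtie2 on hg19 and removed mitochondrial reads. The deposited signal is ngs.plot coverage scaled to library size over the promoter window, with 1 transcript per Ensembl gene. The methods also name a scaling to the density after transcription ends, and whether the deposited signal includes it is not stated. A scaling to reads cannot show a loss shared by the whole genome.

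All values were whole multiples of a library's step (tolerance 0.01), from which approximate reads (3.34 to 3.41 steps per read) were estimated for Clopper-Pearson intervals. Ratios had no pseudocount, and promoters at 0 in −Dox cells were left out of them. Intervals of medians come from order statistics over members. The interval code was tested on simulated data. Transcripts were located with GENCODE 44 on GRCh37 (18244 of 20242, 90.1%). Python 3.11.15, numpy 2.4.6, pandas 2.3.3 and scipy 1.17.1 were used. Named members were the C-type, the first and last of each cluster and those with extreme values or ratios. Sequence pairs, PCDHA3 and the other members named outside that rule were chosen after their values were seen. Members and lists were chosen with earlier results of these data known. Alternatives tried were other thresholds, scalings, pseudocounts and subsets of members.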

Additional observations from a re-analysis of the deposited data

How the results depend on the processing

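No paired analysis was possible because a single library stands for each group. Of 299 recomputed values of 57 results, 268 stayed within their spread and 31 moved. Among median log2 ratios, 0 both moved and changed sign. Within their spread, the alpha H3K27me3 median changed from 0.20 to −0.18 under the mean filter. The gamma H3K4me3 median changed from 0.09 to −0.08 with scaling over low promoters. That scaling also took the summed H3K4me3 ratio from 1.06 to 0.943 in the beta and from 1.12 to 0.995 in the gamma cluster. The median log2 H3K27me3 ratio was above 0 in 8 of 8 settings in the beta cluster (0.49 to 1.12), in 9 of 9 in the gamma cluster (0.42 to 0.84) and in 8 of 9 in the alpha cluster (−0.18 to 0.44), where scaling to the same total gave 0.44. That scaling put 62.5% of beta members above a ratio of 2. Both scalings raise every H3K27me3 ratio, by factors of 1.18 and 1.02, and a pseudocount keeps each ratio on its side of 1. These settings could therefore not bring a positive median below 0, and the settings counted include the reported one. Keeping members with a mean H3K27me3 value of at least 10 left PCDHB5 alone in the beta and PCDHA2 alone in the alpha cluster. Scaling over low promoters moved the alpha H3K4me3 median to −0.39. Shares also changed under other thresholds, pseudocounts and filters, which alter the members counted. With a threshold of 10, the share of marked members in +Dox cells was 73.3% for alpha H3K4me3 and 25.0% for beta H3K27me3. For gamma H3K27me3 it was 33.3% in −Dox and 57.1% in +Dox cells. By their −Dox values, 57.1% of gamma members then had neither mark. With a threshold of 30, the share was 6.25% for beta H3K4me3 in both conditions and 0 for gamma H3K27me3 in +Dox cells. By their −Dox values, 6.25% of beta members were then in the H3K4me3-only class and 93.8% had neither mark. Shares of all promoters at these other settings are not given here.

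The shares of ratios past the fold limits depended largely on low values. With a pseudocount of 1, the share of alpha members with a H3K27me3 ratio above 2 was 0 and that of gamma members with a H3K4me3 ratio below 0.5 was 4.76%. With a pseudocount of 5, the share above 2 for H3K27me3 was 0 in alpha, 12.5% in beta and 4.76% in gamma, the share below 0.5 was 0 for alpha H3K27me3 and for H3K4me3 in all 3 clusters, and the beta share above 2 for H3K4me3 was 6.25%. With members of a mean value of at least 10 alone, the shares were 0 for alpha and beta H3K27me3 below 0.5 and above 2. For H3K27me3 this filter left only PCDHA2 in the alpha and only PCDHB5 in the beta cluster, so these shares describe single promoters. The gamma share above 2 for H3K27me3 was 25.0% under the filter, against 23.8% as reported. The shares were also 0 for H3K4me3 below 0.5 in all 3 clusters and for beta H3K4me3 above 2. Depth limits every single member: 3 reads corresponded to a value of 2.92 to 3.81, and in −Dox cells the H3K27me3 value of each member rested on at most about 11 reads.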
